A study of Mus musculus with 3 samples.

Results

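The transcription factors that set and maintain macrophage identity were followed across the lung myeloid cells of mice: Pparg, Bhlhe40, Bhlhe41, Cebpa, Cebpb, Spi1, Maf, Klf2 and Klf4. These 9 genes were chosen by symbol for their textbook roles, out of 55357 features in the matrices, and each symbol matched 1 feature. Lung cells of C57BL/6 wild type mice had been sorted as live CD45+ Ly6G- F4/80+ cells carrying CD11b or CD11c, and the 3′ ends of their transcripts were sequenced cell by cell in droplets. Each of the 3 libraries held the pooled cells of 3 mice and was the single library of its group. The groups were mice given LPS with the antimicrobial lectin Reg3g (6 µg, given together with LPS), mice given LPS alone (4 mg/kg) and mice given PBS, each by the intratracheal route in 50 µL and 24 h before the lungs were taken. All 3 groups are of the same wild type strain, with no transgene or deletion. With 1 library per group there is no spread between animals, so no test between groups was possible, and every interval below is a 95% interval that covers counting error only.

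Alveolar macrophages are the resident phagocytes of the airspaces, and interstitial macrophages live in the lung tissue beside monocytes that arrive from blood. PU.1, encoded by Spi1, and the C/EBP factors open the enhancers used by all of these myeloid cells. PPARγ, induced by GM-CSF, adds the lipid-handling program particular to alveolar macrophages, the basic helix-loop-helix repressors Bhlhe40 and Bhlhe41 keep that program and its capacity for self-renewal, c-Maf belongs to interstitial and other tissue macrophages and restrains their division, and the zinc-finger factors Klf2 and Klf4 are linked to quiescence and to monocyte differentiation.

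RefSeq promoters (250 bases before to 50 after the gene start, build GRCm38.p6) were found for 6 of the 9 genes. Those of Cebpa, Cebpb, Klf2 and Klf4 are printed for the following reasons. Among the 9 genes, Cebpa had the lowest LPS ratio and Cebpb was the only C/EBP factor that was not lower. Klf2 and Klf4 are the 2 zinc-finger factors, of which only Klf2 was far apart between the LPS with Reg3g and LPS libraries. Capitals mark motifs that were searched on both strands, and the promoters lie at chr7:35119043-35119342 (+ strand, Cebpa), chr2:167688665-167688964 (+ strand, Cebpb), chr8:72318812-72319111 (+ strand, Klf2) and chr4:55532426-55532725 (- strand, Klf4).
Cebpa: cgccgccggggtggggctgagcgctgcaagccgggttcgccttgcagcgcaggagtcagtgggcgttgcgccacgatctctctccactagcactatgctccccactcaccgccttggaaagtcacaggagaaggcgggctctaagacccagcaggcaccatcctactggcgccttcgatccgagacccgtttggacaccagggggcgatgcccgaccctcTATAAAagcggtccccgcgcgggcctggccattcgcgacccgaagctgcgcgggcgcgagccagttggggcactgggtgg
Cebpb: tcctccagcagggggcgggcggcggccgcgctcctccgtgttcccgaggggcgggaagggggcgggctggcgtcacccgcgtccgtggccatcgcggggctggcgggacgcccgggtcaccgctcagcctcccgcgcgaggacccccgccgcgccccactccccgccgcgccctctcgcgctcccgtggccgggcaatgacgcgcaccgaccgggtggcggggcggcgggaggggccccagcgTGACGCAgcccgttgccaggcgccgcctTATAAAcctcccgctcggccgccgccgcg
Klf2: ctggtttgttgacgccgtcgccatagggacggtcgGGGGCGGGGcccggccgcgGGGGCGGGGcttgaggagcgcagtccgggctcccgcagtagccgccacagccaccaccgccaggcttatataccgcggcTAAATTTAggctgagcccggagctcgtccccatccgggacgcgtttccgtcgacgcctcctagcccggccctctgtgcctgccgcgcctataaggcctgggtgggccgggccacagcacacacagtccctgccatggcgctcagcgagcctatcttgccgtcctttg
Klf4: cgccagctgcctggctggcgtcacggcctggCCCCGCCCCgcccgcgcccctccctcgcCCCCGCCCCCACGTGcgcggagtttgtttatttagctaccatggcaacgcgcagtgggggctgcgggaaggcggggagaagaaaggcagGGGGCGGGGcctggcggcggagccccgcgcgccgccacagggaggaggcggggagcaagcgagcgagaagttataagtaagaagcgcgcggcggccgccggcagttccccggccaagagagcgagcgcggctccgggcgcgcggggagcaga
In Cebpa the capitals are a TATA box (TATAAA), which 13.6% of all 32851 promoters of this length hold. Cebpb holds TATAAA and the cyclic AMP-responsive and C/EBP-type motif TGACGCA, found in 2.12% of promoters. Klf2 holds the MEF2 core TAAATTTA, found in 0.545% of promoters, and the GC box GGGGCGGGG at 2 places. Klf4 holds that GC box at 3 places, one of them directly beside an E-box, CACGTG, with no shared base. The GC box stands in 11.4% of promoters and the E-box, the motif that Bhlhe40 and Bhlhe41 bind, in 7.15%. GC content was 67.3% for Cebpa, 80.7% for Cebpb, 69.3% for Klf2 and 74.3% for Klf4, against a median of 52.7% over all promoters. A match says only that these letters stand in the window. In the same build the genes span chr7:35119293-35121928 (+ strand, Cebpa), chr2:167688915-167690418 (+ strand, Cebpb), chr8:72319033-72321656 (+ strand, Klf2), chr4:55527143-55532466 (- strand, Klf4), chr6:115360951-115490399 (+ strand, Pparg), chr6:108660629-108666925 (+ strand, Bhlhe40), chr6:145858243-145865558 (- strand, Bhlhe41), chr2:91082390-91115756 (+ strand, Spi1) and chr8:115682942-115707794 (- strand, Maf), from the GENCODE M21 annotation.

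After filtering, 9281 cells remained with LPS and Reg3g, 13015 with LPS and 7860 with PBS, with median depths of 5459, 4216 and 5923.5 UMIs (unique molecular identifiers, each 1 captured transcript). The 9 genes had 194667 UMIs in the LPS with Reg3g library, 201789 in the LPS library and 176656 in the PBS library. Libraries shared 28 to 37 cell barcodes per pair, at most 0.437% of the smaller library. Cells were clustered without the 9 genes and each cluster was given an X-like name by its marker levels, so the classes are rebuilt here and are not the study's own. A class level is given as CPM, UMIs of the gene per 1000000 UMIs of the class.

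The alveolar-macrophage-like class held 4210 cells with LPS and Reg3g, 5133 with LPS and 3550 with PBS. All 17 of its marker genes reached 10 CPM in each library, and their summed level was 16853 CPM with LPS and Reg3g, 16926 CPM with LPS and 21752 CPM with PBS. Different clusters hold this class in the libraries: a cluster led by Fabp1 and Krt19 held 93.5% of it with PBS, while clusters led by Fstl1 and Cyp26b1, by Wfdc21 and Ear6 and by Tnf and Cxcl1 held nearly all of it in both LPS libraries. The monocyte-like class is divided in the same way, with 2 clusters for PBS (led by Cd177, and by Pglyrp1 and Slc12a2) and 4 others for the LPS libraries. Interstitial-macrophage-like cells came from a single cluster, led by Cxcl13 and C1qa, in every library, but numbered only 129 with LPS and Reg3g, 167 with LPS and 486 with PBS. Within the alveolar-macrophage-like class the summed interstitial markers were 152.5 CPM with LPS and Reg3g, 182.5 CPM with LPS and 129.7 CPM with PBS, the classical monocyte markers 469, 526 and 540 CPM, and the neutrophil markers 155.7, 138.5 and 60.7 CPM in the same order. None of the 11 T and NK cell markers reached 10 CPM in it. The part of these levels in the results was not tested.

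Exposure to LPS was accompanied in alveolar-macrophage-like cells by lower levels of most of the identity factors and by none that was at least 2-fold higher. Cebpa, Klf4, Klf2, Pparg and Bhlhe40 were at least 2-fold lower with LPS than with PBS, Bhlhe41 was lower by less, and Spi1 and Cebpb were slightly higher. That is 5 of the 8 factors with at least 10 CPM in either library, where 14.0% of all 7840 genes measured so were at least 2-fold lower. None was at least 2-fold higher, where 5.74% of all genes were. The median log2 ratio of the 8 was -1.25, against -0.25 over all genes measured. Scaling by the median or the trimmed mean of gene ratios in place of class totals moved the all-gene median to 0.05 or 0.08, and under both the factors at least 2-fold lower were 3: Cebpa, Klf2 and Klf4.

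**Figure D1:**
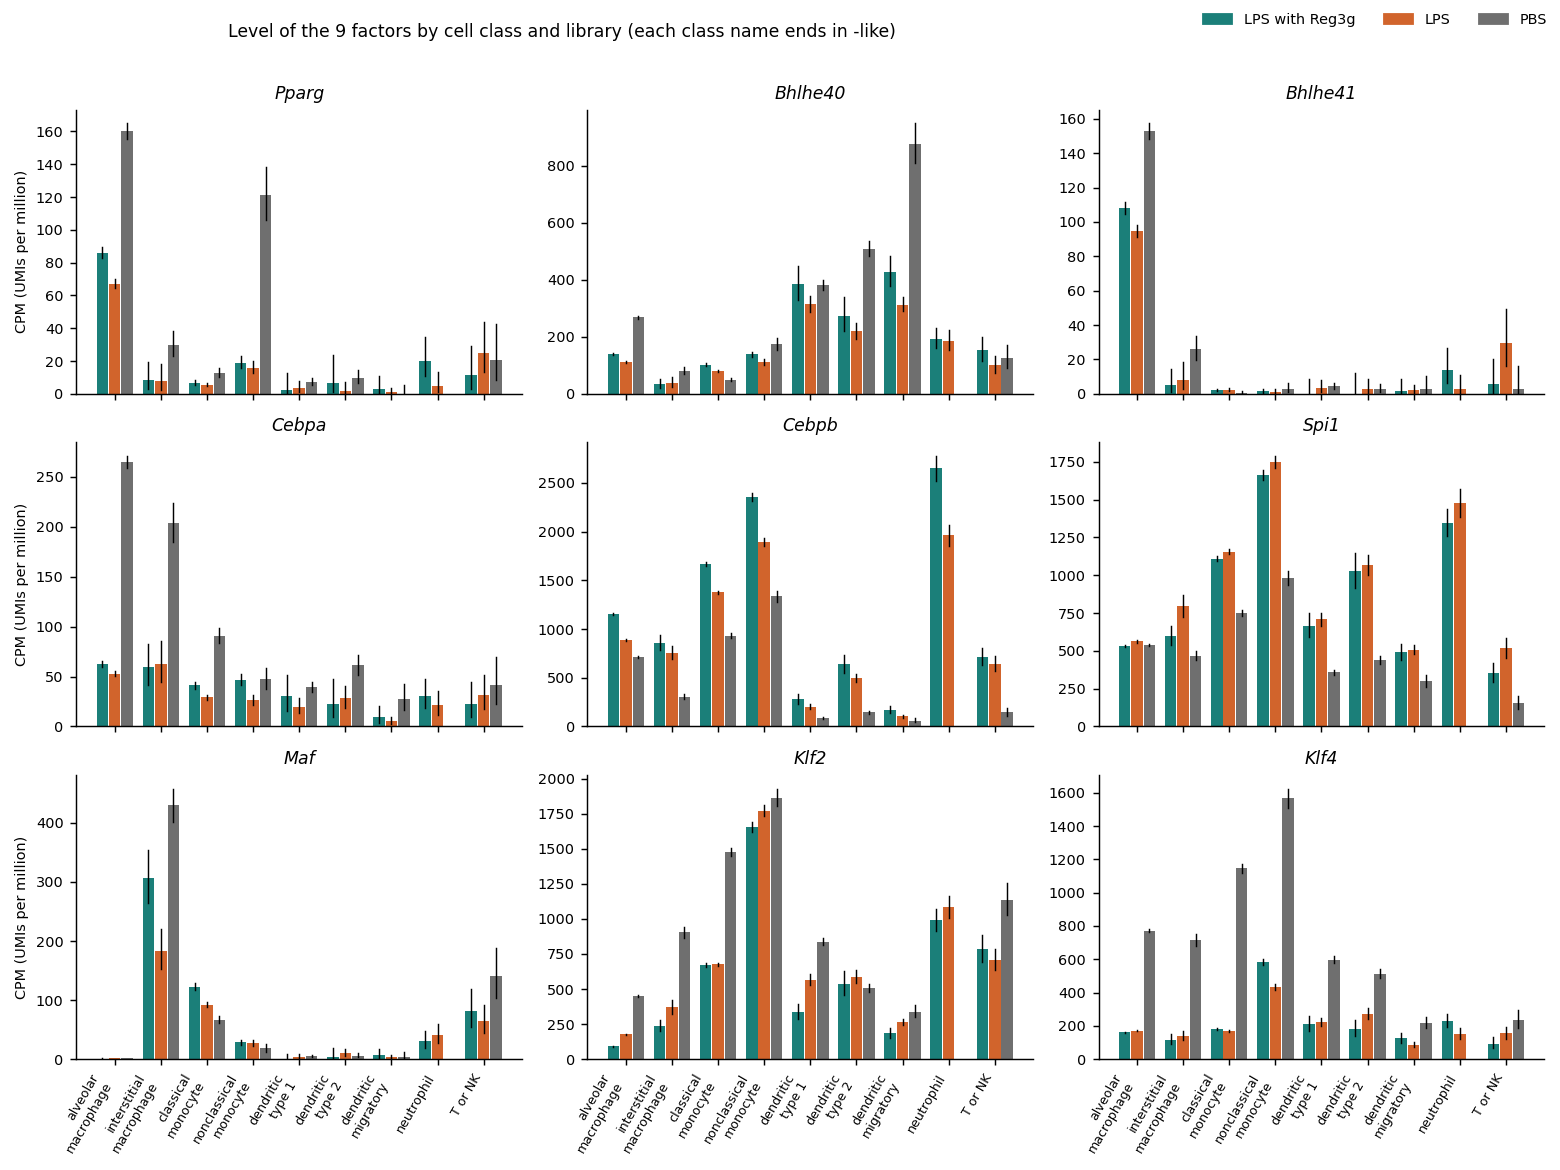
Level of each factor in CPM (vertical axis) in each cell class (horizontal axis) for the LPS with Reg3g, LPS and PBS libraries, with 95% Poisson intervals as bars and classes of under 50 cells left out. Bhlhe41 stands almost alone in the alveolar-macrophage-like class, Maf stands highest in the interstitial-macrophage-like class, and Cebpa and Klf4 are highest with PBS in both.

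Pparg, which encodes the nuclear receptor PPARγ, stood at 86.2 CPM (83.0 to 89.4) with LPS and Reg3g, 67.1 CPM (64.3 to 70.1) with LPS and 160.3 CPM (155.7 to 165.1) with PBS in alveolar-macrophage-like cells. Its log2 ratio of LPS to PBS was -1.26 (-1.33 to -1.18). The 3 intervals of the level did not overlap, and the order was PBS, then LPS with Reg3g, then LPS. Cells with at least 1 Pparg UMI, after thinning every cell to 2000 UMIs, were 15.6% with LPS and Reg3g, 13.04% with LPS and 26.6% with PBS, and without thinning 44.2%, 31.3% and 64.8%. Pparg kept to the class: 89.6% of its UMIs with LPS and Reg3g, 88.6% with LPS and 89.5% with PBS lay in alveolar-macrophage-like cells, which held 57.2%, 50.4% and 57.6% of all UMIs. The one other population near these levels was the nonclassical-monocyte-like class of PBS lungs, with 121.2 CPM, where the LPS with Reg3g library had 18.9 CPM and the LPS library 16.0 CPM.

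Bhlhe40 and Bhlhe41, related E-box repressors that back each other up in mouse alveolar macrophages, did not have the same distribution. Bhlhe41 was at 107.9 CPM with LPS and Reg3g, 94.6 CPM with LPS and 152.8 CPM with PBS in alveolar-macrophage-like cells, a log2 ratio of LPS to PBS of -0.69 (-0.76 to -0.62). Between 94.3% and 96.4% of its UMIs in each library came from that class, the highest share of the 9 factors. Bhlhe40 was at 139.7 CPM with LPS and Reg3g, 112.9 CPM with LPS and 268.5 CPM with PBS, and its LPS to PBS log2 ratio was -1.25 (-1.31 to -1.19). Unlike its relative it was spread over the myeloid and dendritic classes. Migratory dendritic-cell-like cells had 428.6 CPM with LPS and Reg3g, 312.9 CPM with LPS and 877.7 CPM with PBS, and type 1 conventional dendritic-cell-like cells had 385.8, 313.6 and 381.6 CPM, all above the alveolar-macrophage-like values. In alveolar-macrophage-like cells the number of Bhlhe40 UMIs per Bhlhe41 UMI was 1.29 with LPS and Reg3g, 1.19 with LPS and 1.76 with PBS.

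The C/EBP factors are basic leucine-zipper proteins: Cebpa drives myeloid differentiation and growth arrest, and Cebpb is an inflammation-responsive factor that alveolar macrophages of mice also need. In alveolar-macrophage-like cells Cebpa was at 62.5 CPM with LPS and Reg3g, 53.0 CPM with LPS and 264.9 CPM with PBS. The log2 ratio of LPS to PBS was -2.32 (-2.40 to -2.25), which is 5.00-fold lower and the lowest of the 9 factors in this class. Cebpb was at 1153 CPM with LPS and Reg3g, 888.4 CPM with LPS and 715.4 CPM with PBS, a log2 ratio of LPS to PBS of 0.31 (0.29 to 0.34). The 2 genes therefore stood in another proportion: 18.4 Cebpb UMIs per Cebpa UMI (17.6 to 19.3) with LPS and Reg3g and 16.8 (16.0 to 17.6) with LPS, against 2.70 (2.63 to 2.77) with PBS. UMIs count transcript ends, so this ratio is not divided by gene length. In the other classes compared, the proportion was also higher in the LPS libraries than with PBS, while the order of the LPS libraries was not the same in every class. Monocyte-like cells had 43.8 Cebpb UMIs per Cebpa UMI with LPS and Reg3g and 51.6 with LPS, against 12.5 with PBS, and interstitial-macrophage-like cells had 14.3 and 12.0 against 1.51. The gene Tmem189 overlaps Cebpb on the opposite strand and had 4413 UMIs with LPS and Reg3g, 4808 with LPS and 3841 with PBS over all kept cells, against 78444, 66268 and 30622 UMIs of Cebpb.

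Spi1, the gene of the ETS-family factor PU.1 on which the whole myeloid lineage depends, was close to level in alveolar-macrophage-like cells: 533.1 CPM with LPS and Reg3g, 562.4 CPM with LPS and 538.3 CPM with PBS. Its log2 ratio of LPS to PBS was 0.06 (0.03 to 0.09), and as high as 0.40 under the other scalings. A Spi1 UMI was seen in 65.3% of thinned cells with LPS and Reg3g, 66.7% with LPS and 65.1% with PBS. Outside the class the values lay further apart. Nonclassical-monocyte-like cells had 1660 CPM with LPS and Reg3g, 1750 CPM with LPS and 980.9 CPM with PBS. Type 2 conventional dendritic-cell-like cells had 1026, 1067 and 440.8 CPM in that order.

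Maf, the gene of c-Maf, was at or near the limit of detection in alveolar-macrophage-like cells, with 1.12 CPM with LPS and Reg3g, 1.76 CPM with LPS and 1.95 CPM with PBS, so no ratio is given there. Interstitial-macrophage-like cells had 306.4 CPM with LPS and Reg3g, 183.8 CPM with LPS and 429.4 CPM with PBS, the top levels of the gene in each library. In that class Maf was lower with LPS than with PBS, at a log2 ratio of -1.22 (-1.51 to -0.95), and the ratio of LPS with Reg3g to LPS was 0.74 (0.40 to 1.08). Most Maf UMIs of the LPS libraries came from outside this class. Monocyte-like cells held 85.8% of them with LPS and Reg3g and 87.0% with LPS. With PBS they held 29.6%, and interstitial-macrophage-like cells held 58.7%. Of all UMIs, interstitial-macrophage-like cells held 1.07% with LPS and Reg3g, 1.02% with LPS and 4.38% with PBS. Monocyte-like cells held 33.9%, 36.8% and 16.9% in the same order.

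Klf2 and Klf4 are related zinc-finger factors, and in alveolar-macrophage-like cells their levels followed different orders over the libraries. Klf4 was at 160.8 CPM with LPS and Reg3g, 171.6 CPM with LPS and 772.7 CPM with PBS in this class, 4.50-fold lower with LPS than with PBS. Klf2 was at 91.9 CPM with LPS and Reg3g, 176.0 CPM with LPS and 449.1 CPM with PBS, with a log2 ratio of LPS to PBS of -1.35 (-1.40 to -1.31). Klf2 thus had 3 separate levels, while Klf4 had similar levels in both LPS libraries. The number of Klf2 UMIs per Klf4 UMI was 0.572 with LPS and Reg3g, 1.03 with LPS and 0.581 with PBS. Both factors were higher in nonclassical-monocyte-like cells: Klf2 was at 1655 CPM with LPS and Reg3g, 1771 CPM with LPS and 1865 CPM with PBS there, and Klf4 at 582.2, 433.6 and 1567 CPM. Thinned to 2000 UMIs, the variance of Klf2 UMIs over alveolar-macrophage-like cells was 1.81 times the mean with LPS and Reg3g, 2.24 times with LPS and 2.16 times with PBS, and that of Pparg was 1.05 times in each. Klf4 was seen more often in cells with a Klf2 UMI than in cells without one: 34.7% against 22.8% with LPS and Reg3g, 32.5% against 22.2% with LPS and 72.1% against 59.3% with PBS. Pparg and Cebpa gave no such difference, with Cebpa in 11.0% of cells with a Pparg UMI against 10.6% of cells without one in the LPS library.

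**Figure D2:**
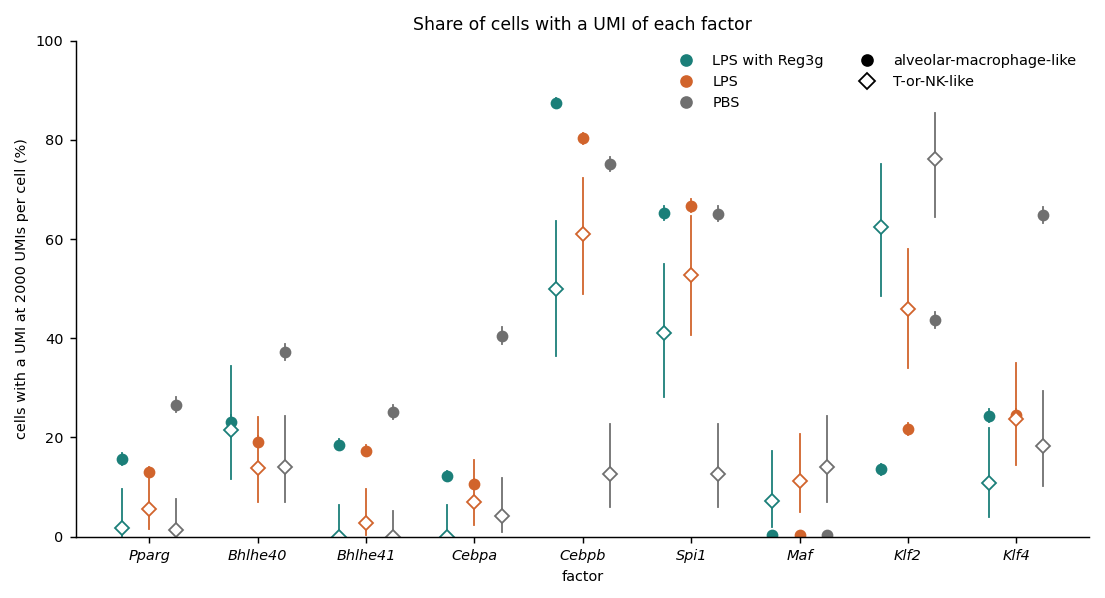
Share of cells (%, vertical axis) with at least 1 UMI of each factor after thinning to 2000 UMIs per cell, for alveolar-macrophage-like cells (filled circles) and T-or-NK-like cells (open diamonds) in the 3 libraries, with 95% Clopper-Pearson intervals. Cells shallower than that depth are left out. For Klf4 and Cebpa the alveolar-macrophage-like share is 24.4% and 10.6% with LPS, within the interval of the T-or-NK-like share, and 64.9% and 40.5% with PBS, far above it.

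Droplets also capture free RNA, and T-or-NK-like cells give a rough measure of it for those factors that they do not make themselves. They numbered 91, 154 and 100 cells with LPS and Reg3g, LPS and PBS. Their median depths were 2456, 1864.5 and 2506.5 UMIs, against 7474, 5987 and 7675 in alveolar-macrophage-like cells. Cells shallower than the thinning depth are left out of the shares. With LPS the median T-or-NK-like cell, at 1864.5 UMIs, lay below that depth, so the shares describe only the deeper cells. Among the T-or-NK-like cells left after thinning, Spi1 was seen in 41.1% with LPS and Reg3g, 52.8% with LPS and 12.7% with PBS. Cebpb was seen in 50.0%, 61.1% and 12.7% in the same order. The alveolar macrophage markers summed to 1511.87 CPM in the T-or-NK-like cells with LPS and Reg3g, 4572.38 CPM with LPS and 1781.04 CPM with PBS. In the LPS library the shares of Klf4 (24.4% in alveolar-macrophage-like against 23.6% in T-or-NK-like cells), Cebpa (10.6% against 6.94%), Bhlhe40 (19.1% against 13.9%) and Pparg (13.04% against 5.56%) had overlapping intervals, as had Bhlhe40 with LPS and Reg3g (23.2% against 21.4%), so these shares alone did not separate the classes at this depth. The T-or-NK-like cells are few and carry alveolar macrophage markers. Of the levels of these 4 factors with LPS, only those of Pparg had intervals that lay apart. Pparg was at 67.1 CPM (64.3 to 70.1) with LPS in alveolar-macrophage-like cells, against 25.2 CPM (13.01 to 44.0) in T-or-NK-like and 0.976 CPM in migratory dendritic-cell-like cells. Cebpa was at 53.0 CPM (50.4 to 55.6), against 31.5 CPM (17.6 to 51.9) and 5.37 CPM in the same classes. Klf4 was at 171.6 CPM (167.1 to 176.3), against 155.2 CPM (121.9 to 194.9) and 87.9 CPM. Bhlhe40 was at 112.9 CPM (109.2 to 116.7), against 100.7 CPM (74.2 to 133.5) and 312.9 CPM. With LPS and Reg3g, Bhlhe40 was at 139.7 CPM, against 153.2 CPM (115.1 to 199.9) in T-or-NK-like cells. Bhlhe40 was seen in 42.8% (38.9 to 46.7) of the thinned cells of the Tnf and Cxcl1 cluster with LPS. That cluster held 13.2% of the alveolar-macrophage-like class with LPS. With PBS the same 4 factors were separated, with 64.9% against 18.3% for Klf4, 40.5% against 4.23% for Cebpa, 37.3% against 14.1% for Bhlhe40 and 26.6% against 1.41% for Pparg. Bhlhe41, Cebpb and Spi1 were above the T-or-NK-like share in all 3 libraries. Klf2 is a factor of resting T cells, and it was seen in more T-or-NK-like than alveolar-macrophage-like cells in each library, so its share there is no measure of free RNA. Maf was not taken as one either. With PBS it was at 141.5 CPM in T-or-NK-like, 66.6 CPM in classical-monocyte-like and 1.95 CPM in alveolar-macrophage-like cells. Bhlhe40 was at 126.8 CPM in T-or-NK-like cells with PBS, where Pparg was at 20.6 CPM. Whether these Bhlhe40 UMIs are the cells' own was not tested. Counted over the 9 factors, the median alveolar-macrophage-like cell showed 2 of them with LPS and Reg3g, 2 with LPS and 4 with PBS, and 4 or more were seen in 20.4%, 19.6% and 58.3% of cells.

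When Reg3g was given together with LPS, none of the 8 measured factors reached a 2-fold difference from LPS alone in alveolar-macrophage-like cells. Over all 7162 genes measured in this comparison, 0.0279% passed 2-fold upwards and 0.0698% downwards. Klf2 was the factor with the widest gap, at a log2 ratio of -0.94 (-1.002 to -0.87), or 1.91-fold lower with LPS and Reg3g. Cebpb (0.38, 0.35 to 0.40) and Pparg (0.36, 0.28 to 0.44) were the highest on this log2 scale, followed by Bhlhe40 (0.31), Cebpa (0.24) and Bhlhe41 (0.19). Spi1 (-0.08) and Klf4 (-0.09) were nearly level. The median of the 8 was 0.21, against 0.03 over all genes. Pparg, Bhlhe40, Bhlhe41 and Cebpa thus stood between their LPS and PBS levels, and this ratio shares the LPS library with the ratio of LPS to PBS. The Tnf and Cxcl1 cluster, where Bhlhe40 was highest, held 19.2% of the class with LPS and Reg3g and 13.2% with LPS. Inside the clusters compared, the Bhlhe40 ratio ran from -0.17 (-0.56 to 0.22) to 0.31. Over the alternatives it was as low as 0.18.

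Against PBS, the LPS with Reg3g library had 3 of 8 factors at least 2-fold lower in alveolar-macrophage-like cells, where 10.7% of 7816 genes were, and none at least 2-fold higher, where 4.96% were. The 3 were Klf2 at a log2 ratio of -2.29, Klf4 at -2.26 and Cebpa at -2.08. Pparg, at -0.90, and Bhlhe40, at -0.94, lay just short of the 2-fold limit here and just beyond it for LPS alone. Cebpb was at 0.69, Bhlhe41 at -0.50 and Spi1 at -0.01. The median of the 8 was -0.92, against -0.20 over all genes.

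**Figure D3:**
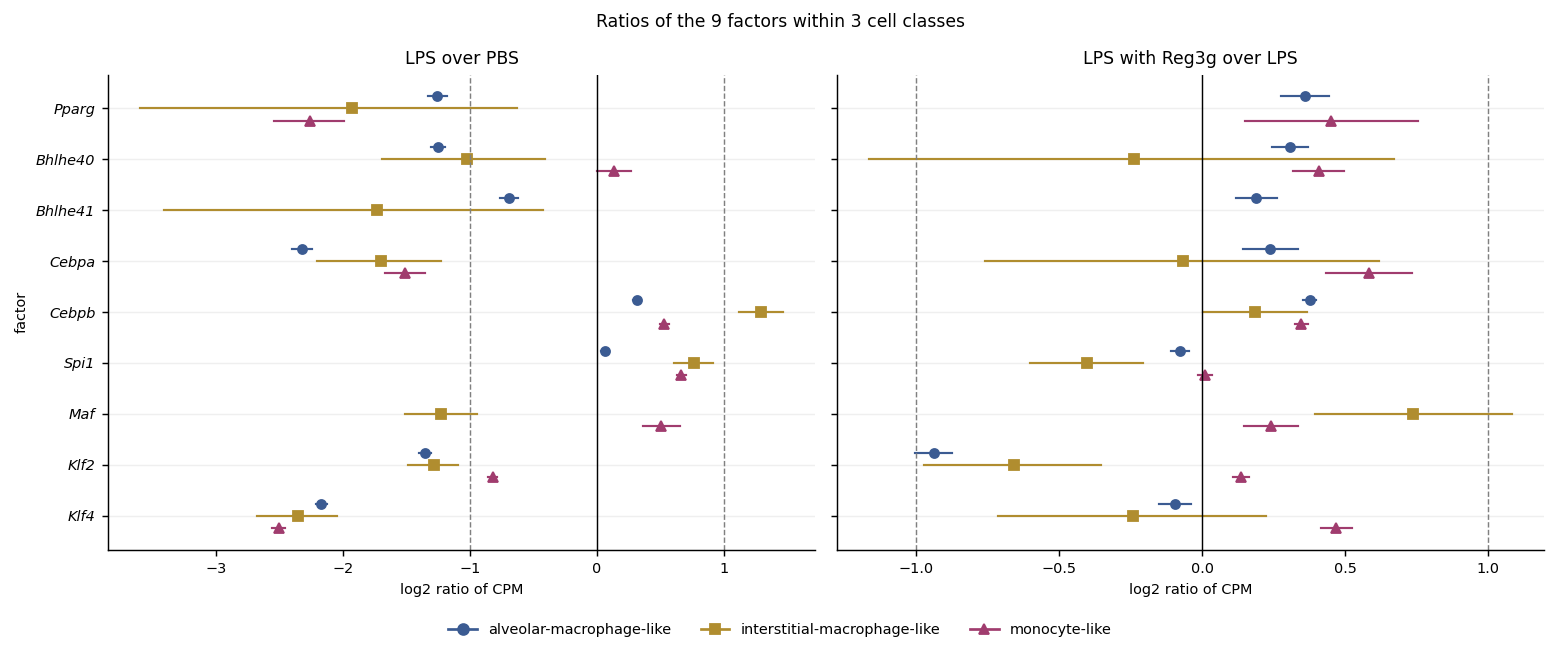
Log2 ratio of each factor (vertical axis lists the factors, horizontal axis the log2 ratio) for LPS with Reg3g against LPS and for LPS against PBS in alveolar-macrophage-like, interstitial-macrophage-like and monocyte-like cells, with 95% conditional binomial intervals and dashed lines at a 2-fold difference; factors under 10 CPM in both libraries are not drawn. Klf4 and Cebpa lie below the lower line for LPS against PBS in all 3 classes. Klf2 parts between alveolar-macrophage-like (-0.94) and monocyte-like cells (0.14) for LPS with Reg3g against LPS. The monocyte-like value was -0.045 with clusters weighted as in the LPS library.

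The differences were also looked for inside the clusters that make up the alveolar-macrophage-like class. Bhlhe40 was highest in the cluster led by the cytokine genes Tnf and Cxcl1, with 324.8 CPM with LPS and Reg3g and 287.0 CPM with LPS, against 102.3 and 90.6 CPM in the Fstl1 and Cyp26b1 cluster. That level is near the 276.0 CPM of the main PBS cluster. Cebpa did not reach the PBS level in any cluster of the LPS libraries, where it ran between 49.1 and 79.4 CPM in the 3 large clusters, against 274.1 CPM in the main PBS cluster. Klf4 likewise ran between 128.8 and 218.9 CPM there, against 787.2 CPM.

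Only a cluster of cycling cells, led by Cenpf and Stmn1, held cells of all 3 libraries in number (95, 91 and 198 with LPS and Reg3g, LPS and PBS). Within it the log2 ratios of LPS to PBS were -1.32 for Cebpa, -1.14 for Klf4, -0.85 for Pparg and -0.77 for Klf2, and -0.09 for Bhlhe40 and 0.03 for Bhlhe41. The first 4 have the direction of the whole class with a smaller size, and the helix-loop-helix pair was level. For LPS with Reg3g against LPS, Klf2 was lower in each of the 4 clusters compared, at log2 ratios of -1.27 in the Fstl1 and Cyp26b1 cluster, -0.67 in the Wfdc21 and Ear6 cluster, -0.95 in the Tnf and Cxcl1 cluster and -1.26 in the cycling cluster. Cebpb was between 0.22 and 0.39 in the same 4.

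**Figure D4:**
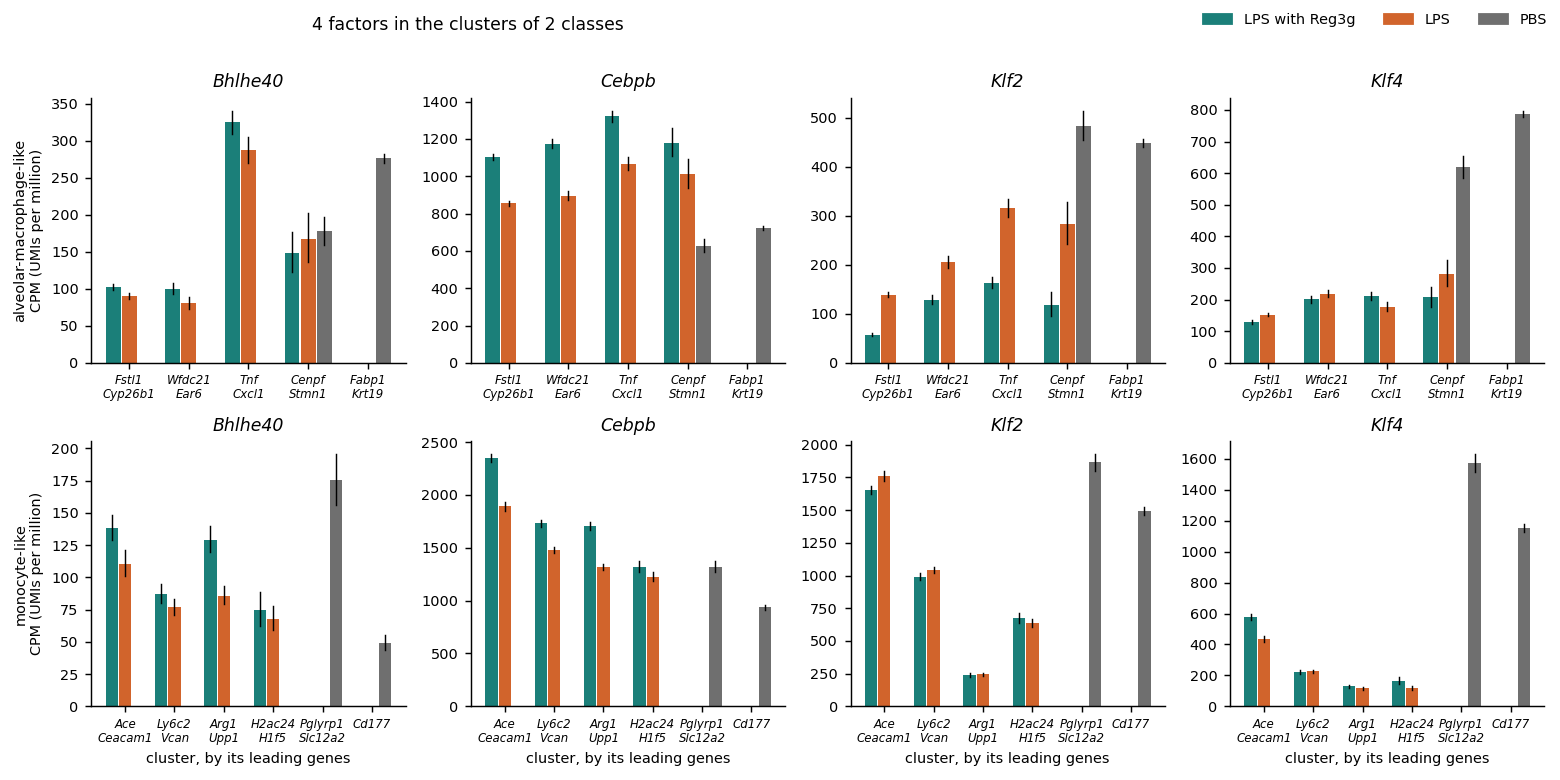
Level in CPM (vertical axis) of Bhlhe40, Cebpb, Klf2 and Klf4 in the clusters of the alveolar-macrophage-like and monocyte-like classes, named by their leading genes (horizontal axis), for each library with 95% Poisson intervals. Bhlhe40 stands at 324.8 and 287.0 CPM in the Tnf and Cxcl1 cluster of the LPS with Reg3g and LPS libraries, and Klf2 in the monocyte-like cluster led by Arg1 and Upp1 (241 and 244 CPM) stands far below that of the Ly6c2 and Vcan cluster (991 and 1043 CPM).

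Monocyte-like cells (4190 with LPS and Reg3g, 6048 with LPS and 2213 with PBS) had 3 of 8 measured factors at least 2-fold lower with LPS than with PBS, where 8.56% of 7667 genes were, and none at least 2-fold higher, where 10.9% of genes were. Klf4 was at 301.9 CPM with LPS and Reg3g, 218.0 CPM with LPS and 1239 CPM with PBS, with a log2 ratio of LPS to PBS of -2.51 (-2.56 to -2.46). Cebpa was at 42.8, 28.6 and 81.5 CPM in the same order, at a log2 ratio of -1.51 (-1.67 to -1.35). Klf4 and Cebpa were thus at least 2-fold lower in this class as in alveolar-macrophage-like cells. Pparg, at 10.4 CPM with LPS and Reg3g, 7.62 CPM with LPS and 36.5 CPM with PBS, was the other such factor, at a log2 ratio of -2.26 (-2.54 to -1.99). Bhlhe40, Spi1, Cebpb and Maf were higher with LPS by less than 2-fold, at 0.13 (0.00 to 0.27), 0.67, 0.53 and 0.51 on the log2 scale, and Klf2 was at -0.82. The median of the 8 was -0.34, against 0.02 over all genes.

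The 2 monocyte subsets differed for some factors. Classical-monocyte-like cells had a log2 ratio of LPS to PBS of -2.77 for Klf4, -1.64 for Cebpa, -1.13 for Klf2 and 0.66 for Bhlhe40. Nonclassical-monocyte-like cells had -1.85, -0.86, -0.08 and -0.66 for the same genes, and -2.92 for Pparg. Bhlhe40 therefore had opposite directions in the subsets, and its near-level ratio over all monocyte-like cells sums over both. In the LPS libraries Klf2 also marked off a cluster led by Arg1 and Upp1, where it was at 241 CPM with LPS and Reg3g and 244 CPM with LPS, against 991 and 1043 CPM in the cluster led by Ly6c2 and Vcan.

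For LPS with Reg3g against LPS no factor reached 2-fold in monocyte-like cells, where 0.0949% of 7376 genes passed 2-fold upwards and 0.0678% downwards. The log2 ratios were 0.58 for Cebpa, 0.47 for Klf4, 0.45 for Pparg, 0.41 for Bhlhe40, 0.35 for Cebpb, 0.24 for Maf and 0.01 for Spi1. Klf2 was at 970.8 CPM with LPS and Reg3g and 883.8 CPM with LPS, a log2 ratio of 0.14 (0.11 to 0.16), where alveolar-macrophage-like cells had -0.94. With the clusters weighted as in the LPS library the monocyte ratio of Klf2 was -0.045.

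Interstitial-macrophage-like cells had 7 of 9 factors at least 2-fold lower with LPS than with PBS, where 15.7% of 8252 genes were, and 1 at least 2-fold higher, where 9.97% were. The lowest was Klf4, at 118.2 CPM with LPS and Reg3g, 139.8 CPM with LPS and 715.6 CPM with PBS, a log2 ratio of LPS to PBS of -2.36. Klf2 (-1.29), Cebpa (-1.70), Maf (-1.22), Bhlhe40 (-1.02), Bhlhe41 (-1.73) and Pparg (-1.93) were the others. The Pparg ratio rests on 5 UMIs with LPS against 64 with PBS, that of Bhlhe41 on 5 against 56 and that of Bhlhe40 on 25 against 171. Over the alternatives Pparg ran from -2.53 to -0.56, Bhlhe41 from -3.11 to -0.33 and Bhlhe40 from -1.28 to -0.34. Cebpb was the factor that was higher, at 857.5 CPM with LPS and Reg3g, 753.9 CPM with LPS and 307.2 CPM with PBS, a log2 ratio of LPS to PBS of 1.30. These counts depended on the treatment of doublets: with the removed share doubled, 4 factors were at least 2-fold lower. The alveolar macrophage identity list, whose program includes Pparg and Bhlhe41, had 2 of 22 genes higher and 12 lower in this class too, with a median of -1.03 against -0.08 over all genes. The immediate early and dissociation-response list had 6 of 15 lower and none higher, with a median of -0.84. The part of either in the values of the factors was not tested.

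Among the dendritic classes, Cebpb was higher with LPS than with PBS by more than 2-fold in both conventional types. Type 2 conventional dendritic-cell-like cells had 637.3 CPM with LPS and Reg3g, 494.3 CPM with LPS and 145.5 CPM with PBS, and the type 1 class had 281.9, 203.6 and 87.1 CPM in that order. The log2 ratios of LPS to PBS were 1.76 and 1.23. T-or-NK-like cells give only a rough measure of free RNA. They had 712 CPM of Cebpb with LPS and Reg3g, 643.9 CPM with LPS and 144.5 CPM with PBS. In both LPS libraries the 2 conventional types lay below these levels. Migratory dendritic-cell-like cells had less Cebpb, at 170.5 CPM (140.3 to 205.3) with LPS and Reg3g and 104.9 CPM (91.4 to 119.9) with LPS. Both conventional types lay above that, with 452.2 to 539.3 CPM as the interval of type 2 and 181.4 to 227.7 CPM as that of type 1 with LPS. The part of free RNA in the dendritic values was not tested. Across the classes with at least 50 cells, the top level of Cebpb was in neutrophil-like cells, at 2648 CPM with LPS and Reg3g and 1962 CPM with LPS, a class with only 12 cells in the PBS library although cells with Ly6G had been gated out. Nonclassical-monocyte-like cells followed, at 2353 CPM with LPS and Reg3g, 1894 CPM with LPS and 1334 CPM with PBS, and with LPS the intervals of these classes overlapped.

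Target and partner genes of the factors were counted in lists. Among 11 measured C/EBP targets, 7 reached a 2-fold higher level and 1 a 2-fold lower level with LPS than with PBS in alveolar-macrophage-like cells, with a median log2 ratio of 4.59 against -0.25 over all genes. They include the acute-phase genes Lcn2 (1559 CPM with LPS, 0.426 CPM with PBS) and Saa3 (402.2 and 0.177 CPM) and the prostaglandin E synthase gene Ptges (144.8 and 4.97 CPM). Il6, Il1b, Cd14 and Acod1 were the other 4, and the lower one was the receptor gene Csf3r (7.3 CPM with LPS, 17.6 CPM with PBS). Most of these are also known LPS-response genes, while Cebpb itself was at 0.31 and Cebpa at -2.32. The 14 PPARγ target genes had no common direction, with 3 higher, 6 lower and a median of -0.07. The stearoyl-CoA desaturase gene Scd1 (50.4 CPM with LPS, 5.18 CPM with PBS) and the carbonic anhydrase gene Car4 (2489 and 474.1 CPM) were higher, as was the fatty acid-binding protein gene Fabp4 (1160.5 and 552.6 CPM), and the cholesterol exporter gene Abcg1 (399.1 and 1705 CPM) and the kinase gene Pdk4 (3.35 and 20.2 CPM) were lower.

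Of 11 PU.1 targets 3 were higher by 2-fold or more and 1 was lower, with a median of 0.01 against -0.25 over all genes, where 5.74% of all genes were higher and 14.0% lower. The integrin gene Itgam (65.6 CPM with LPS, 2.16 CPM with PBS), Csf1r, the receptor gene for the growth factor CSF1 (158.4 and 64.9 CPM), and the oxidase gene Cybb (3244 and 1451 CPM) were higher, and the Fc receptor gene Fcgr1 (9.20 and 39.2 CPM) was lower. The list of c-Maf targets had a median of 0.79 and, against the same background, 2 of 5 higher, the complement gene C1qb, at 22.1 CPM with LPS and 6.03 CPM with PBS, and Csf1r, which is on both lists. Only 3 KLF target genes were measured, of which 1, the thrombomodulin gene Thbd (9.65 and 42.4 CPM), was lower. In monocyte-like cells, where Klf2 is high, 8 were measured and 6 were lower and 1 higher with LPS than with PBS, with a median of -1.44 against 0.02 over all genes. The higher one was the arginase gene Arg1.

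Close relatives of the factors were also counted. Among 18 in alveolar-macrophage-like cells, 5 were at least 2-fold lower with LPS than with PBS, where 14.0% of all genes were, and the median was -0.33 against -0.25 over all genes. Rxra, the dimer partner of PPARγ (31.2 CPM with LPS, 92.4 CPM with PBS), Cebpd (30.9 and 82.7 CPM) and Klf10 (62.4 and 173.5 CPM) were lower, as were Elf1 and Klf3. Of 16 other myeloid transcription factors 1 was higher, Batf3 (138.1 and 16.6 CPM), and 5 were lower, namely Irf8 (56.3 and 184.4 CPM), Nr4a1 (35.4 and 118.6 CPM), Tcf4, Runx1 and Id3, with a median of -0.60. The 22 genes of the alveolar macrophage identity list had 4 higher and 10 lower, with a median of -0.55 against -0.25 over all genes, among them Fabp1 at 114.7 CPM with LPS and 1285 CPM with PBS. The identity list, the cluster names and the PPARγ list share genes, so their counts are not separate evidence.

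Lists that report on handling and on division are given beside these values. Of 15 immediate early and dissociation-response genes, 1 was at least 2-fold higher and 8 were lower with LPS than with PBS in alveolar-macrophage-like cells, with a median of -1.03, and 1 was higher and 7 lower in monocyte-like cells, with a median of -0.92. The higher gene was Ier3 in both classes. Fosb was at 111.2 CPM with LPS and 698.1 CPM with PBS, and Jun at 283.8 and 1120 CPM. Klf2 and Klf4 are themselves rapidly induced genes, and the part of cell handling in their levels was not tested. Of 19 cell cycle genes 13 were lower and none higher with LPS than with PBS in alveolar-macrophage-like cells, while in monocyte-like cells 19 of 20 were higher and none lower. Over all genes measured in alveolar-macrophage-like cells, 5.74% were higher and 14.0% lower, with a median of -0.25. In monocyte-like cells 10.9% of all genes were higher and 8.56% lower, with a median of 0.02. For LPS with Reg3g against LPS in alveolar-macrophage-like cells the only genes of the 10 lists that reached 2-fold were Scd1, at 19.3 CPM with LPS and Reg3g and 50.4 CPM with LPS, and the heat-shock gene Hspa1a, at 27.5 and 73.9 CPM. Scd1, Hspa1a, Csf3r, Fabp4, Arg1 and the list members given without values were named after their values were seen.

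The genes whose levels followed each factor most closely were found over 23 pairs of class and library by Pearson's r of log2 levels. These pairs share libraries and differ in depth, so r describes them only. Bhlhe41 was matched by Krt79 (r = 0.98), Atp6v0d2 (0.95) and Hebp1 (0.95), and Spi1 by Arpc1b (0.96) and Nupr1 (0.92). Cebpb was matched by Pgd (0.95), Prdx5 (0.95) and Fcer1g (0.94), and Klf2 by its relative Klf3 (0.94), Ifngr1 (0.91) and Hes1 (0.91). For Cebpa they were Hexa (0.91), Runx1 (0.90) and Hprt (0.89), for Maf they were Tmem37 and Nfxl1 (0.89 each), and for Pparg they were Lilra5 (0.89), Pwwp3a (0.87) and Ptpn12 (0.86). Klf4 was matched by the immediate early gene Jun (0.88), Ptp4a2 (0.87) and Laptm5 (0.84). The weakest matches were those of Bhlhe40, with Rhof (0.87), Ubxn2a (0.80) and Avpi1 (0.78).

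**Figure D5:**
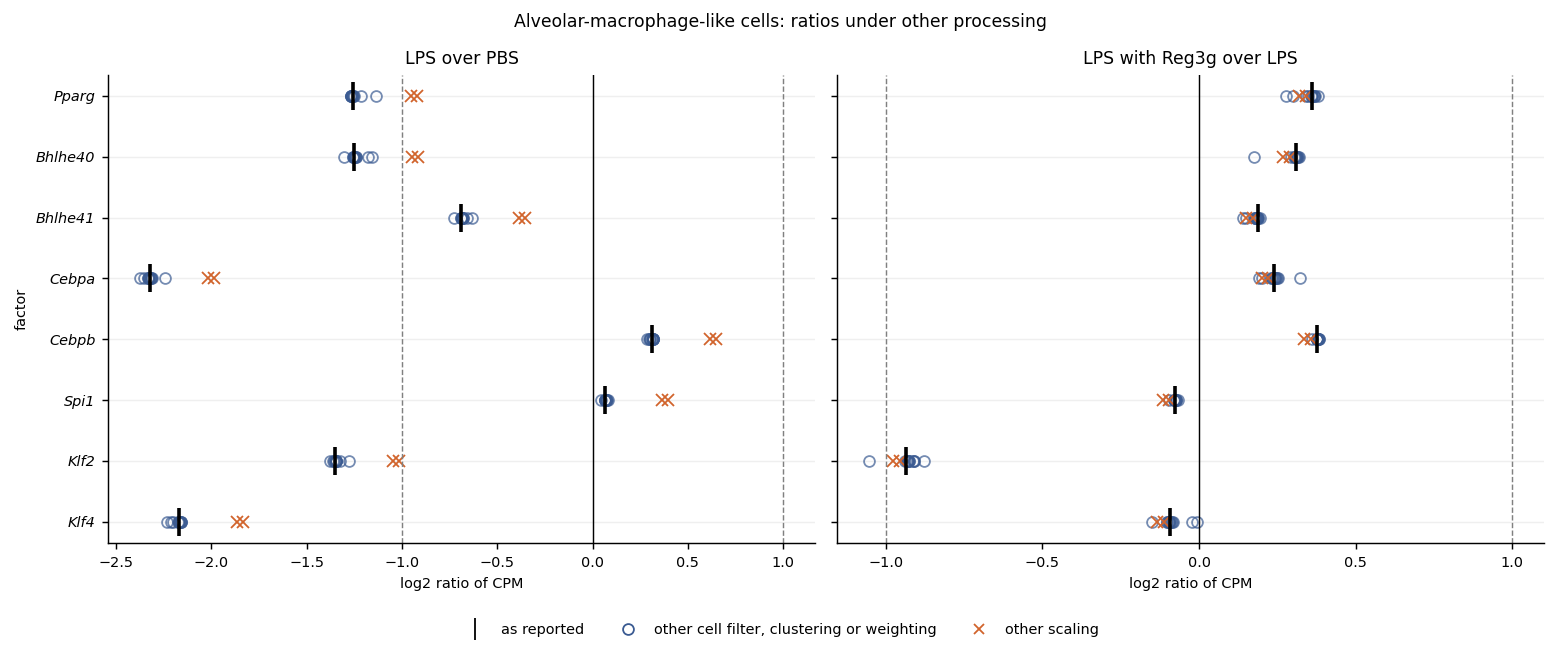
Log2 ratio of each factor (horizontal axis) in alveolar-macrophage-like cells for LPS with Reg3g against LPS and LPS against PBS, as reported and under other cell filters, clusterings or weightings, and under other scalings. For LPS against PBS, Cebpa (-2.32), Klf4 (-2.17) and Klf2 (-1.35) stay beyond the 2-fold line, and Pparg (-1.26) and Bhlhe40 (-1.25) move inside it under the 2 other scalings.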

How the data were processed

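The files were 3 matrices of UMI counts per gene and barcode, deposited by the authors, whose file headers name Cell Ranger 9.0.1. Besides the build mm10, the submitters' processing notes list Seurat 4.4.0 and bcl2fastq 5.0.1, while no gene annotation is named in the labels used here. Of 55357 features 52081 (94.1%) matched GENCODE M21, used for positions only.

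A barcode was kept if it had no fewer than 500 genes and 1000 UMIs and if mitochondrial UMIs made up no more than 15%. This dropped 544 of 10213 (LPS with Reg3g), 1135 of 15015 (LPS) and 343 of 8475 (PBS). Doublets, the highest Scrublet scores at 0.4% per 1000 barcodes, removed 388, 865 and 272 more. Cells were clustered together on 2000 variable genes (without the 9 factors, of which 2 would have been among them), 30 principal components, 15 neighbours and Leiden resolution 1, giving 24 clusters. Clusters were named by the highest mean of 19 marker lists. A cluster with under 3 detected markers, a median doublet score over 0.1, or mitochondrial and ribosomal RNA as leading genes stayed unnamed (2 clusters, with 188, 169 and 144 cells). For shares of cells with a UMI, each cell was thinned to 2000 UMIs, leaving out 882, 1950 and 710 shallower cells.

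CPM values are an own calculation from these counts: the UMIs of a gene in all cells of a class, per 1000000 UMIs of that class in the library. A CPM has an exact Poisson, a share an exact Clopper-Pearson and a log2 ratio an exact conditional binomial interval, all at 95%. A gene counted as measured with at least 10 CPM in either library, and as higher or lower past 2-fold. Named list genes are up to 4 per list with the largest absolute log2 ratio in alveolar-macrophage-like cells for LPS against PBS, and the genes alike in pattern are the 3 of highest r over pairs of class and library with at least 100 cells, among genes with at least 50 CPM in 1 pair. A few genes these rules name are not reported here. The log2 ratio intervals were tested only on simulated Poisson counts, so spread between cells beyond counting error was not covered. Alternatives were other filters, doublet shares, resolutions, scalings, floors and cluster weights. The 9 factors and the gene lists were chosen with earlier results of these data known. Python 3.11.15, scanpy 1.11.5, numpy 2.4.6, scipy 1.17.1, pandas 2.3.3, igraph 0.11.9 and matplotlib 3.10.9 were used.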

Additional observations from a re-analysis of the deposited data

Results flagged for a closer look

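For 4 factors a ratio had opposite signs in 2 cell classes. With 1 library per group these differences were not tested, and the intervals on the ratios cover counting error only.

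Bhlhe40, for LPS against PBS, was at a log2 ratio of -1.25 (-1.31 to -1.19) in alveolar-macrophage-like and 0.13 (0.00 to 0.27) in monocyte-like cells, a difference of -1.38. In interstitial-macrophage-like cells it was at -1.02 (-1.69 to -0.41), which is -1.16 from the monocyte-like value. Classical-monocyte-like cells alone had 0.66 and nonclassical-monocyte-like cells -0.66.

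Maf, for LPS against PBS, was at -1.22 (-1.51 to -0.95) in interstitial-macrophage-like and 0.51 (0.36 to 0.66) in monocyte-like cells, a difference of -1.73.

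Klf2, for LPS with Reg3g against LPS, was at -0.94 (-1.002 to -0.87) in alveolar-macrophage-like and 0.14 (0.11 to 0.16) in monocyte-like cells, a difference of -1.07. The interstitial-macrophage-like value, -0.66 (-0.97 to -0.35), differed from the monocyte-like one by -0.79. Inside the monocyte-like clusters compared, the Klf2 ratio ran only from -0.09 to 0.09. With clusters weighted as in the LPS library the monocyte-like ratio was -0.045, so its positive sign depends on the mix of clusters.

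Klf4, for the same pair of libraries, was at -0.09 (-0.15 to -0.04) in alveolar-macrophage-like and 0.47 (0.41 to 0.52) in monocyte-like cells, a difference of -0.56. Its sign was not the same inside the alveolar-macrophage-like clusters compared, from -0.44 in the cycling cluster to 0.26 in the Tnf and Cxcl1 cluster. Inside the monocyte-like clusters compared it ran from -0.04 to 0.47. Over the alternatives that keep to monocyte-like cells it was as low as 0.22.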

How the results depend on the processing

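Values were recomputed under up to 15 alternatives per result. Over single factors and list medians 563 values stayed within their counting interval, or within a fixed limit for list medians. Of the others 143 moved further and 7 were counted as changing sign. For a factor a change of sign was counted only where its reported interval lay off 0. Spi1, near level, also took both signs. Its range was -0.03 to 0.58 for LPS with Reg3g against PBS in alveolar-macrophage-like cells. For LPS with Reg3g against LPS in monocyte-like cells it was -0.07 to 0.03. For counts of factors 163 values stayed within 1.5 times and 8 did not. In alveolar-macrophage-like cells, 5 factors were at least 2-fold lower with LPS than with PBS and 3 were under both trimmed mean and median-of-ratios scaling, which by construction move every ratio alike. For LPS with Reg3g against LPS the count lower was 1 (Klf2, -1.05) in place of 0 with clusters weighted as in the LPS library. With all cells of a library pooled, 1 factor was at least 2-fold higher for LPS with Reg3g against PBS. For LPS against PBS, where interstitial-macrophage-like cells had 1 higher and 7 lower, all cells together had 0 higher and 4 lower. The interstitial-macrophage-like count was 4 lower with the doublet share doubled and 2 higher at resolution 2, and the cause was not tested. Taking all cells together mixes classes. Among ratios with an interval off 0, Klf4 for LPS with Reg3g against LPS in alveolar-macrophage-like cells changed sign there (0.16). In monocyte-like cells Bhlhe40 for LPS against PBS (-1.18) and Klf2 for LPS with Reg3g against LPS (-0.18) did so. Maf for LPS against PBS in interstitial-macrophage-like cells did so too (0.071). Klf2 in monocyte-like cells was also at -0.045 with clusters weighted as in the LPS library. With a floor of 50 CPM, fewer genes entered the medians of the PPARγ targets (0.23) and the c-Maf targets (-0.11). Settings for interstitial-macrophage-like cells, LPS with Reg3g against PBS, doublet shares, resolutions and cluster weights were in part chosen after seeing the data. At a thinning depth of 1000 UMIs, as at 2000, 6 factors (Pparg, Bhlhe40, Bhlhe41, Cebpa, Klf2 and Klf4) were seen in a smaller share of alveolar-macrophage-like cells with LPS than with PBS; Maf was too rare to tell (0.308% with LPS, 0.313% with PBS).

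No paired analysis was possible because each group has 1 library and no replicate numbers. The limits are that counting intervals omit the variation between mice, that cell classes were rebuilt and are held by different clusters in the PBS and LPS libraries, and that classes of few cells (interstitial-macrophage-like with 129 cells in the LPS with Reg3g library) give wide intervals.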

Other observations

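After thinning to 2000 UMIs, the alveolar-macrophage-like cells that showed a cell cycle UMI were 43.6% with LPS and Reg3g, 42.4% with LPS and 42.5% with PBS. Such a UMI stood in far more cells than the cycling cluster held, so it does not mark dividing cells. Cells with and without one had similar shares of most factors. With LPS, Klf2 was seen in 22.3% and 21.1%, and with PBS, Klf4 in 65.0% and 64.9%. Bhlhe41 with LPS was seen in 19.1% (17.4 to 20.9) and 16.1% (14.7 to 17.5), which barely overlap. Because of that limit these shares do not show whether the factors vary with division. Genes annotated over the factors on the opposite strand, other than Tmem189, had few UMIs in the kept cells: Gm43909, over Bhlhe41, had 88 with LPS and Reg3g, 88 with LPS and 153 with PBS, and Gm15655, over Maf, had 66, 68 and 53.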
